A study of Rattus norvegicus with 11 samples.

Results

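Described here are 49 genes of the extracellular matrix and of its receptors, measured while rat embryonic stem cells were converted to hypoblast stem cells. They were chosen by gene symbol, with earlier results of these data known. The symbols taken were those of collagen chains, laminin chains and integrin subunits with a row of their own on the array, represented by the brightest row. Of 56 symbols of these forms, 4 chains (Col1a1, Col4a1, Lama1 and Lamc1) and 3 integrin-binding proteins were left out by the rule, so that 49 of 14506 genes remained. They were 23 collagens, 5 laminins and 21 genes of the integrin family.

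Total RNA from cells of 1 line, DAc2, was hybridised to 11 Rat Gene 1.0 ST arrays from Affymetrix. In the feeder arm the starting stem cells had grown on mouse embryonic fibroblasts with 3 µM CHIR99021, a GSK3 inhibitor, and 0.5 µM PD0325901, a MEK inhibitor. In the feeder-free arm they had grown on plates coated with laminin, with the same dose of CHIR99021, with PD0325901 at 2 µM, and with BMP4 at 5 ng/mL. Both arms then went into a medium made for multipotent adult progenitor cells, with LIF, EGF, PDGF and 2% serum, and the resulting cells are called cHypoSCs. Arrays were made on days 0, 7, 17 and 32: 1 per day in the feeder arm, and in the feeder-free arm 1 on day 0 and 2 on each later day. Whether feeder cells remained during conversion or contributed RNA is not given in the labels. The feeder-free pairs are labelled as biological replicates, without saying what was separate. Where each day of each arm had its own mean in the fit, the p-values below measure the spread within these pairs. For day 32 against days 0 and 17, fitted with terms for day and culture, that spread also includes differences between the arms over time.

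The hypoblast, or primitive endoderm, is the layer of the early embryo that lines the blastocyst cavity and gives rise to the extraembryonic endoderm of the yolk sacs. Its cells secrete and sit on a basement membrane, a sheet built from laminin trimers, network-forming type IV collagen and linking proteins; the parietal endoderm of rodents makes a very thick one. Fibrillar collagens, by contrast, are typical products of fibroblasts and other mesenchymal cells. Integrins are receptors of 1 alpha and 1 beta subunit that bind matrix proteins outside the cell and adaptor proteins of the cytoskeleton inside it, and the pairing sets the ligand.

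Values are on the log2 scale, on which a difference of 1 is a 2-fold difference, and all 11 arrays had a median of 8.97. Levels of different genes are not compared, since each probe set has its own brightness. The background was taken from 1240 olfactory or vomeronasal receptor genes: 95% of them lay below 8.06, and a change with an end below that value may be understated. Within the feeder-free pairs the correlation over genes was 0.997 to 0.998, and the 49 genes differed by at most 0.51, 0.55 and 0.35 between the 2 arrays of days 7, 17 and 32. The mean over 7 hypoblast markers was 9.04 on day 0 and 12.92 on day 32 in the feeder arm, and in the feeder-free arm 9.41 on day 0 and 13.25 and 13.20 on day 32. Nanog, a pluripotency factor, lay below background on day 32 in both arms, whereas Pou5f1, another such factor, was still at 13.39 in the feeder arm and at 14.41 and 14.27 in the feeder-free arm. In bulk RNA such as this, fewer cells of a type and less RNA per cell cannot be told apart.

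**Figure D1:**
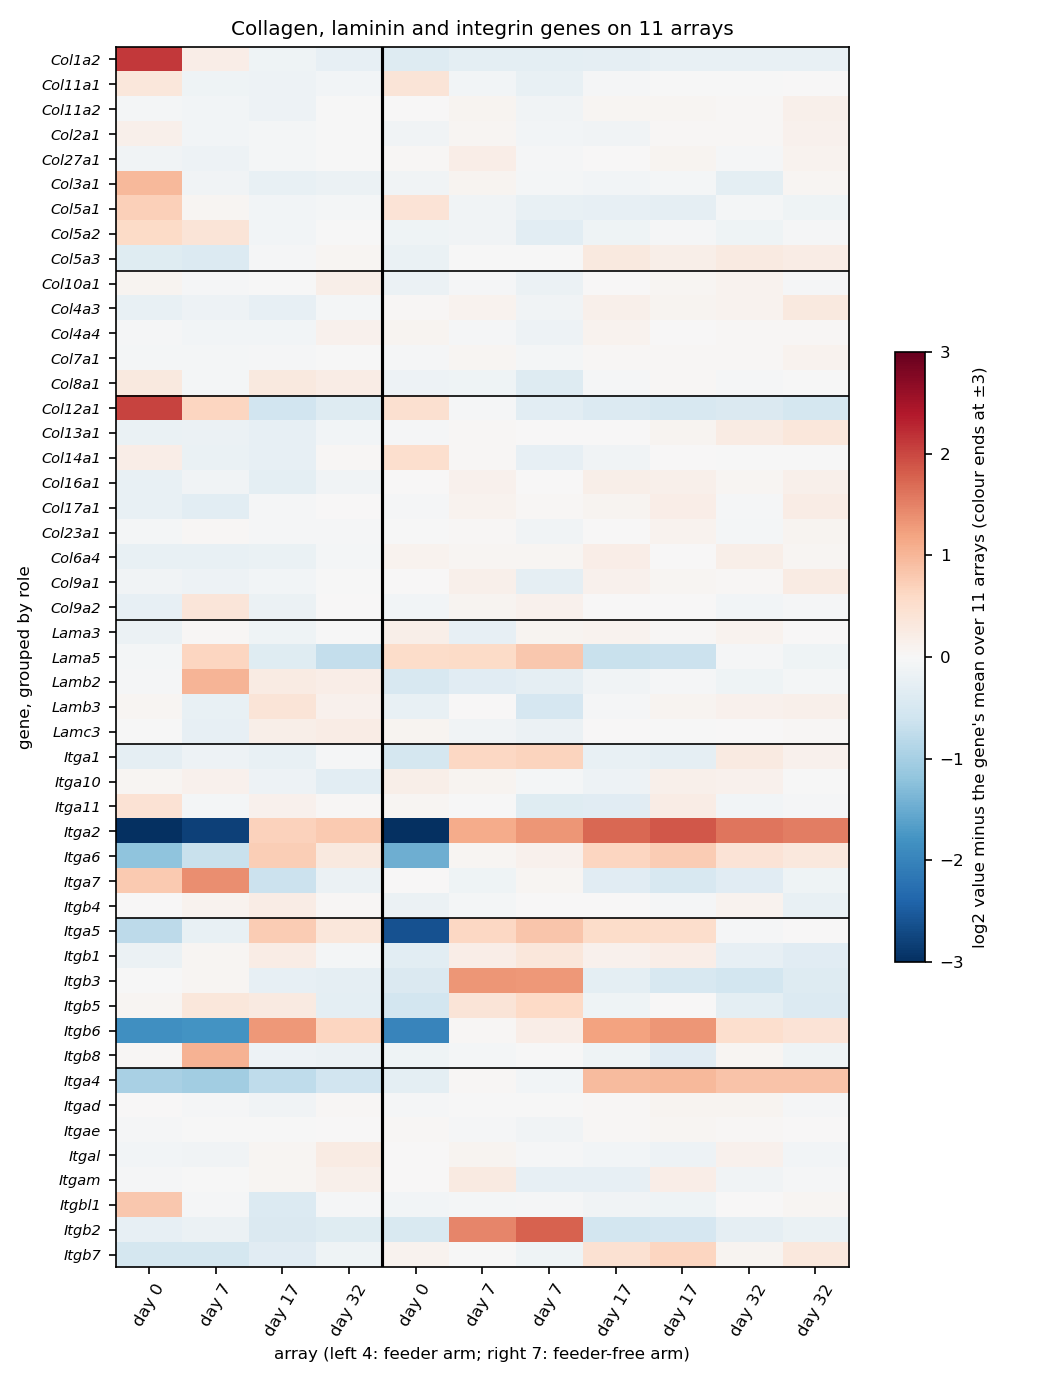
Log2 value of each of the 49 genes (rows, grouped by role) on each of the 11 arrays (columns, the 4 feeder arrays on the left and the 7 feeder-free arrays on the right), minus the gene's mean over all arrays; the colour scale ends at 3 in either direction. Most collagen and laminin rows are pale, Col1a2 and Col12a1 are high on day 0 of the feeder arm, and the integrin rows Itga2, Itga5 and Itgb6 are blue on day 0 and red on day 17 in both arms.

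Most of these genes moved little. The range over all arrays was under 0.5 for 16 of the 49 and at least 1 for 18, which is 36.7% against 38.4% of all genes. Its median was 0.68 against 0.80 for all genes. The chains Col1a1, Col4a1, Lama1 and Lamc1, left out by the rule, had ranges of 3.44 to 5.44. Shares of the 49 here and below do not include them. The 18 wide ranges belonged to 3 collagens, 2 laminins and 13 genes of the integrin family, among them Itgbl1, no receptor subunit, and Itgb8, below background throughout. Of the 9 genes with a range of at least 2, 7 were integrin subunits (Itga2, Itga4, Itga5, Itga6, Itga7, Itgb2 and Itgb6) and 2 were collagens (Col1a2 and Col12a1). Only 4 genes, Itgad, Itgae, Itgam and Itgb8, lay below the background bound on every array.

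Between day 0 and day 32, 5 integrin subunits and 1 collagen rose and 4 collagens fell in a fit across all arrays with terms for day and for culture (limma, adjusted p under 0.05). The rises were those of Itga2, Itgb6, Itga5, Itga6, Itga4 and Col5a3, and the falls those of Col12a1, Col5a1, Col11a1 and Col14a1. As shares, 12.2% of the 49 rose and 8.16% fell, against 17.4% and 13.7% of all genes tested. The median change was 0.04 over the 49 genes and 0.05 over all genes. Without the feeder-free day 0 array the calls were 2 rises, Itga2 and Itga6, and 6 falls, Col11a1, Col12a1, Col1a2, Col3a1, Col5a1 and Itgbl1. With 8 group means there were 8 rises, with Itga1 and Lamb2 added, and 10 falls, with Col1a2, Col3a1, Col5a2, Itga7, Itgbl1 and Lama5 added. The shares of all genes above belong to the fit with day and culture terms on all arrays, and those of these alternatives are not given here. On all 6 arrays of days 17 and 32, 6 of the 49 genes lay above both day 0 arrays, against 19.8% of all genes, and 5 lay below both, against 14.5%. They were Itga2, Itga5, Itga6, Itgb6, Col5a3 and Col7a1 above and Col5a1, Col11a1, Col12a1, Col14a1 and Itga7 below.

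Among the 49 genes, integrins carried the rises of the first 7 days in the feeder-free arm, in a fit with 8 group means. There 9 of the 49 rose from day 0 to day 7, all of them integrin subunits, and 4 fell, all of them collagens. As shares, 18.4% of the 49 rose and 8.16% fell, against 16.2% and 20.7% of all genes tested. Of the chains left out by the rule, Col4a1, Lama1 and Lamc1 rose over these days by 4.86, 2.76 and 2.53. Col1a1 did not pass. From day 7 to day 17 of the same arm 5 integrin subunits rose (background 16.5%), and 5 integrin subunits and Lama5 fell (background 7.36%). Between day 17 and day 32, in the fit over both arms, 0 of the 49 genes rose and 0 fell, as among all genes, where 0% passed in either direction. At an unadjusted p under 0.05 the same comparison had 3 of the 49 genes (Itgb1, Itgb5 and Col13a1) and 1057 of all genes. The largest changes were -0.76 ± 0.40 for Itgb6 and -0.51 ± 0.42 for Itga5. These SE include differences between the arms, and with 8 group means that of Itgb6 was 0.09. The share of 0% belongs to the fit with day and culture terms on all arrays. For the alternatives that follow, the shares of all genes are not given here, so their counts cannot be set against a background. With 8 group means 5 integrins fell (Itga5, Itga6, Itgb1, Itgb5 and Itgb6), and without the feeder day 7 array Itgb6 alone did.

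The arms differed in how far the genes had moved by day 7. Genes of the integrin family, 21 of the 49, made up 11 of the 15 genes that passed. The 11 include Itgb8, below background on every array. They also include Itgbl1, no receptor subunit, which was above background only on day 0 of the feeder arm. The change from day 0 to day 7 was smaller, or further down, in the feeder arm for 12 of the 49 genes, which is 24.5% against 11.2% of all genes, and it was larger in the feeder arm for 3, against 10.9%. On day 0 itself 9 genes were higher in the feeder arm (background 14.7%) and 3 were lower (background 16.9%). Averaged over days 17 and 32, 3 were higher in the feeder arm (background 20.1%) and 7 lower (background 18.9%). Each feeder group is a single array, assumed in these tests to vary like the feeder-free pairs. These comparisons share arrays: the day 0 arrays enter the changes to day 7 in both arms, so a gene can pass in several of them through 1 array.

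**Figure D2:**
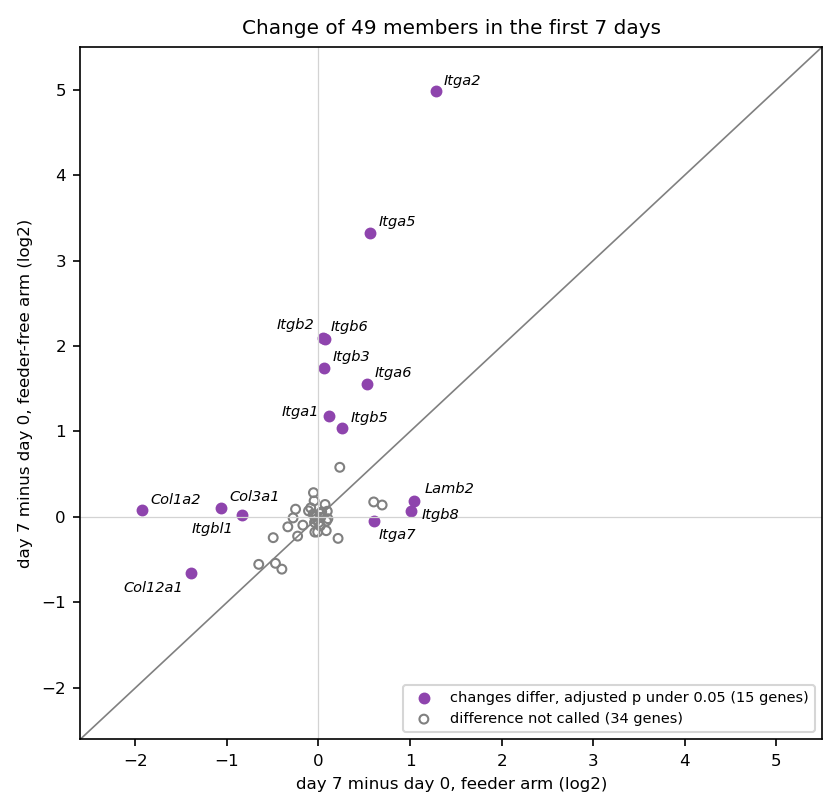
Change from day 0 to day 7 of each of the 49 genes in the feeder arm (horizontal axis) and in the feeder-free arm (vertical axis), both log2; filled points mark the 15 genes whose changes differed at an adjusted p under 0.05, and the diagonal marks equal change. Itga2, Itga5, Itgb6, Itgb2, Itgb3, Itga6, Itga1 and Itgb5 lie above the diagonal, with feeder-free changes of 1.04 to 4.98, and Col1a2, Col3a1 and Itgbl1 lie to the left with feeder-free changes of at most 0.11.

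Promoter sequences are shown for the 3 integrin genes with the largest rises to day 32, so that their base composition can be seen beside their values. Each is the 250 bases before the annotated start in RefSeq, build GRCr8, on the gene's own strand, with CpG pairs in capitals. The Itga2 window is chr2:48354510-48354759 on the minus strand, the Itgb6 window chr3:65530334-65530583 on the minus strand and the Itga5 window chr7:136381306-136381555 on the minus strand.
Itga2: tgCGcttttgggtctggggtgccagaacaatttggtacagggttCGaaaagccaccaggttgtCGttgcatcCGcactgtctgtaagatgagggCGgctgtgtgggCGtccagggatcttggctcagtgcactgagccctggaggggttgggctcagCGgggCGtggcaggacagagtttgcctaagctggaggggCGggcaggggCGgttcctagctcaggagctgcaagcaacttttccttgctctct
Itgb6: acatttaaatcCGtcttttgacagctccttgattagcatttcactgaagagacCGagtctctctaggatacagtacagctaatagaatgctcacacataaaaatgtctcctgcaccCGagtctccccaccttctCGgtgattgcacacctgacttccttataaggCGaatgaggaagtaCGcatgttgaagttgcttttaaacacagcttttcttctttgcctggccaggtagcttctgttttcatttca
Itga5: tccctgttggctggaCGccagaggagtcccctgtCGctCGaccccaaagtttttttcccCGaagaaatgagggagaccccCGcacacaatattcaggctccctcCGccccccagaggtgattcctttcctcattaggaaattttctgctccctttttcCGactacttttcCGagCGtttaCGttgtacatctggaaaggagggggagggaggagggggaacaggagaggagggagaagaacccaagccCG
The windows hold 10, 6 and 11 CpG pairs in Itga2, Itgb6 and Itga5. Promoters were found for 37 of the 49 genes, with a median of 10 CpG pairs and 58.8% GC, against 5 and 51.2% over 33469 promoters of the same length. The 33469, also used for the motifs below, were all promoters available and not limited to genes measured on the arrays. Searched on both strands, the GATA motif AGATAA or TGATAA occurred in 2 of the 37 windows (Col17a1 and Itgae) and in 16.9% of all windows. The AP-1 motif TGACTCA occurred in 1 of the 37 (Lama3) and in 4.0% of all. The 3 sequences above held neither motif.

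Among the ligands, 3 of 9 fibrillar collagens (Col1a2, Col3a1 and Col5a2) were higher on day 0 in the feeder arm and 0 were lower. Of all genes 14.7% were higher and 16.9% lower. Col1a2, the second chain of type I collagen, had log2 values of 11.84, 9.90, 9.59 and 9.46 on days 0, 7, 17 and 32 of the feeder arm, against 9.33 on day 0, 9.41 and 9.41 on day 7, 9.44 and 9.49 on day 17 and 9.48 and 9.50 on day 32 of the feeder-free arm. A single array, day 0 of the feeder arm, stood above all others. The difference on day 0, feeder minus feeder-free, was 2.50 ± 0.14 (SE, limma adjusted p = 3.12e-08). Col3a1, the chain of type III collagen, read 10.14, 9.07, 8.94 and 8.98 on days 0, 7, 17 and 32 of the feeder arm, against 9.07 on day 0, 9.25 and 9.11 on day 7, 9.08 and 9.12 on day 17 and 8.87 and 9.22 on day 32 of the feeder-free arm. Again day 0 of the feeder arm was the 1 high array, higher than the feeder-free day 0 array by 1.07 ± 0.17 (adjusted p = 0.000349). Col5a2, a type V chain that joins type I fibrils and the neighbour of Col3a1 on chromosome 9, was higher there by 0.68 ± 0.15. The chain Col1a1, left out of the 49, differed the same way by 3.17 ± 0.19.

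Fibroblast markers were also high on the feeder day 0 array. Over 15 such markers, none of them a collagen, the mean was 9.59, 9.25, 8.96 and 8.59 on days 0, 7, 17 and 32 of the feeder arm, against 8.15 to 8.37 on the 7 feeder-free arrays. On day 0 all 15 were higher in the feeder arm, and 10 lay above the background bound, against 8 in the feeder-free arm. Postn read 11.79 against 6.80 and Prrx1 11.78 against 8.50, whereas Dcn, Lum, Ogn and Fap were below the bound on all arrays. Day 0 of the feeder arm was the highest of the 11 arrays for 13 of the 15. The other 2 went otherwise over the feeder arm: S100a4 read 7.47, 10.11, 11.10 and 8.99 on days 0, 7, 17 and 32, and Mfap5 10.99, 11.21, 13.52 and 13.19. The part of these genes in the collagen values of day 0 was not tested.

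**Figure D3:**
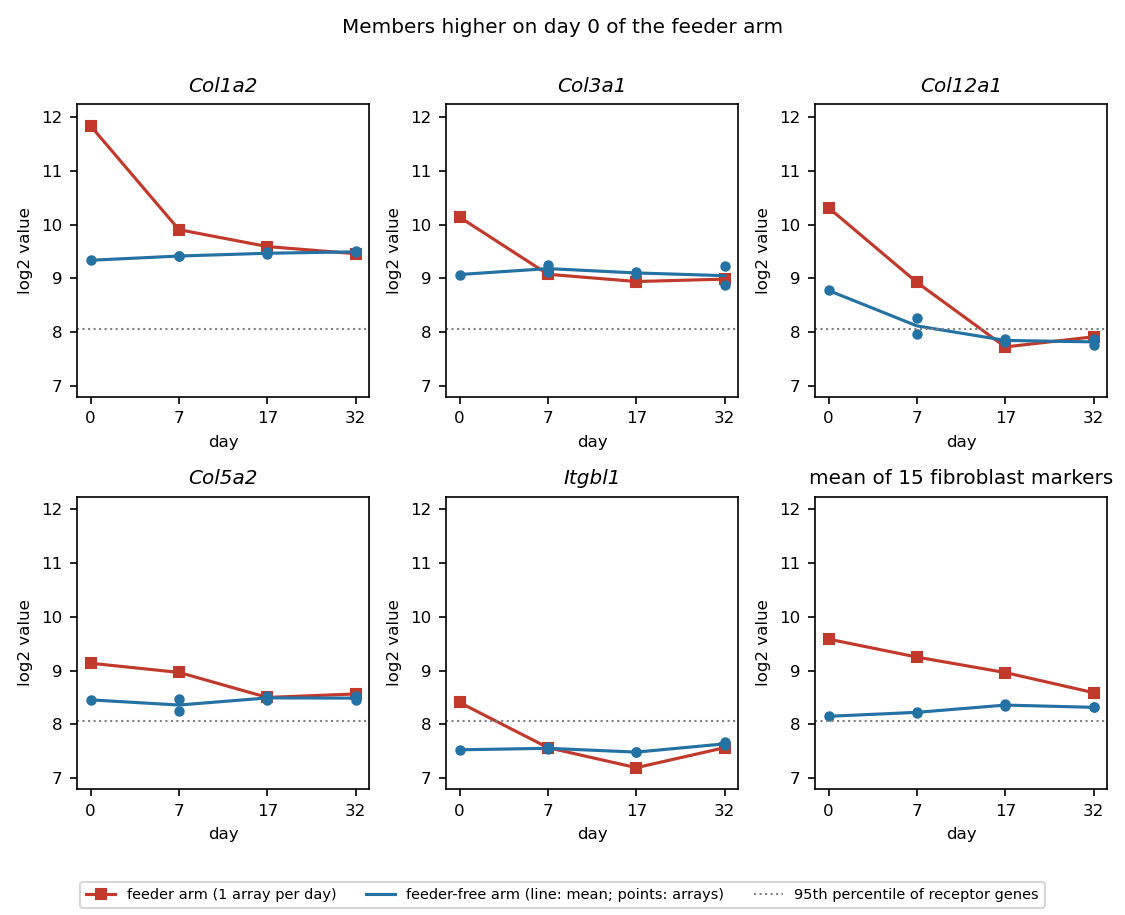
Log2 values of Col1a2, Col3a1, Col12a1, Col5a2 and Itgbl1 and the mean of 15 fibroblast markers on days 0, 7, 17 and 32 (evenly spaced), with the feeder arm as red squares (1 array per day) and the feeder-free arm as blue points (arrays) and lines (means); the dotted line is the background bound of 8.06. Each of the 5 genes has its highest value on day 0 of the feeder arm, and the marker mean falls over the feeder arm while the feeder-free values stay between 8.15 and 8.37.

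Of the other 6 fibrillar chains, Col5a1, Col11a1 and Col5a3 changed between day 0 and day 32, by less than 1 on the log2 scale. Col5a1, a type V chain that helps to start fibrils, had values of 10.37, 9.71, 9.58 and 9.60 on days 0, 7, 17 and 32 of the feeder arm, against 10.06 on day 0, 9.57 and 9.44 on day 7, 9.43 and 9.38 on day 17 and 9.60 and 9.54 on day 32 of the feeder-free arm. Both day 0 arrays lay above all 9 later arrays. From day 0 to day 32 it fell by 0.61 ± 0.09 (SE, adjusted p = 0.00153). Col11a1, a type XI chain found with cartilage collagen, measured 9.40, 8.93, 8.91 and 8.99 on days 0, 7, 17 and 32 of the feeder arm, against 9.46 on day 0, 8.98 and 8.85 on day 7, 9.04 and 9.06 on day 17 and 9.05 and 9.08 on day 32 of the feeder-free arm. It showed the same order, and fell by 0.40 ± 0.08 (adjusted p = 0.00591). Col5a3, the least widespread type V chain, rose by 0.42 ± 0.09 to day 32 (adjusted p = 0.00652). Over days 17 and 32 it was lower in the feeder arm, with a difference of -0.23 ± 0.09 (adjusted p = 0.0467), a call lost without any 1 of the 4 feeder-free arrays of those days. Col2a1, Col11a2 and Col27a1 had ranges of 0.26 to 0.36 and passed in none of the 7 comparisons. Of the 9 fibrillar collagens 1 rose and 2 fell to day 32, against 17.4% and 13.7% of all genes.

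Col12a1, whose product decorates type I fibrils, had the widest fall of any collagen among the 49. Its values were 10.31, 8.92, 7.72 and 7.91 on days 0, 7, 17 and 32 of the feeder arm, against 8.77 on day 0, 8.26 and 7.97 on day 7, 7.87 and 7.82 on day 17 and 7.87 and 7.77 on day 32 of the feeder-free arm. The day 0 arrays were higher than those of days 17 and 32, that of the feeder arm by 1.54 ± 0.16 over the feeder-free one, and the 6 arrays of days 17 and 32 lay below the background bound, with no overlap. It fell by 1.61 ± 0.32 to day 32 (adjusted p = 0.00549). Without the feeder day 0 array that change was -1.01 (adjusted p = 0.0243). Col14a1, a related fibril-associated collagen, had values of 8.59, 8.19, 8.13 and 8.41 on days 0, 7, 17 and 32 of the feeder arm, against 8.89 on day 0, 8.42 and 8.14 on day 7, 8.27 and 8.38 on day 17 and 8.37 and 8.35 on day 32 of the feeder-free arm. Both day 0 arrays again exceeded the later ones. It fell by 0.38 ± 0.12 (adjusted p = 0.035), a call lost without any 1 of 6 arrays (day 0 and each of days 17 and 32 of the feeder-free arm, and day 17 of the feeder arm).

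The basement membrane and network collagens other than the main type IV chains were nearly flat. Of 5 such genes (Col4a3, Col4a4, Col7a1, Col8a1 and Col10a1) 0 changed in any comparison between days, and their ranges were 0.16 to 0.68. Col4a3 and Col4a4, neighbours on chromosome 9, code for the type IV chains of the glomerular basement membrane. Col4a3 was lower in the feeder arm over days 17 and 32, with a difference of -0.30 ± 0.10 (adjusted p = 0.0247), a call lost without the second feeder-free day 32 array. Col8a1, a short-chain network collagen, measured 8.41, 8.08, 8.41 and 8.35 on days 0, 7, 17 and 32 of the feeder arm, against 7.98 on day 0, 8.0 and 7.73 on day 7, 8.08 and 8.15 on day 17 and 8.08 and 8.10 on day 32 of the feeder-free arm. The feeder values of days 17 and 32 exceeded the feeder-free ones of those days, by 0.28 ± 0.10 on average (adjusted p = 0.0346), a call lost without the first feeder-free day 17 array or either feeder-free day 32 array.

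By contrast, the main basement membrane chains, left out of the 49, were among the large rises. Col4a1, a chain of the ubiquitous type IV collagen, rose by 4.35 ± 0.73 from day 0 to day 32, Lama1, the alpha chain of laminin-111, by 3.14 ± 0.48 and Lamc1, its gamma chain, by 2.82 ± 0.48 (SE, limma, adjusted p = 0.00255 for Col4a1, adjusted p = 0.00163 for Lama1 and adjusted p = 0.00273 for Lamc1).

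Among the other collagens, Col13a1, a transmembrane collagen of cell contacts, had values of 9.15, 9.18, 9.12 and 9.27 on days 0, 7, 17 and 32 of the feeder arm, against 9.32 on day 0, 9.39 and 9.37 on day 7, 9.38 and 9.44 on day 17 and 9.60 and 9.69 on day 32 of the feeder-free arm. The feeder arrays of days 17 and 32 lay below the feeder-free arrays of those days, with a mean difference of -0.33 ± 0.09 (adjusted p = 0.00703). Col16a1, a fibril-associated collagen, measured 8.88, 8.98, 8.80 and 8.98 on days 0, 7, 17 and 32 of the feeder arm, against 9.11 on day 0, 9.23 and 9.11 on day 7, 9.28 and 9.25 on day 17 and 9.14 and 9.26 on day 32 of the feeder-free arm. It was likewise lower in the feeder arm, with a difference of -0.34 ± 0.09 (adjusted p = 0.0074), on a narrow range of 0.48. The genes Col6a4, Col9a1, Col9a2, Col17a1 and Col23a1 passed in none of the 7 comparisons, with ranges of 0.22 to 0.60.

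Of the 5 laminin chains among the 49, 0 passed between day 0 and day 32, with a median change of 0.07. Of all genes 17.4% rose and 13.7% fell. With 8 group means Lamb2 rose by 0.30 ± 0.09 (adjusted p = 0.0162) and Lama5 fell by 0.65 ± 0.10 (adjusted p = 0.000104), and both also passed with the feeder-free arrays alone and without the feeder day 7 array. Lama5, the alpha chain of laminin-511, a substrate that sustains pluripotent stem cells, had values of 10.28, 10.98, 9.96 and 9.62 on days 0, 7, 17 and 32 of the feeder arm, against 10.89 on day 0, 10.91 and 11.14 on day 7, 9.67 and 9.68 on day 17 and 10.30 and 10.21 on day 32 of the feeder-free arm. The day 0 and day 7 arrays of both arms lay above all day 17 and day 32 arrays, except that 1 feeder-free day 32 array, at 10.30, was just above the feeder day 0 array, at 10.28. Lama5 fell by 1.35 ± 0.11 from day 7 to day 17 of the feeder-free arm (adjusted p = 7.49e-07), and the feeder value moved by -1.02 over the same days. On day 0 it was lower in the feeder arm, with a difference of -0.60 ± 0.15 (adjusted p = 0.0082).

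Lamb2, a beta chain of synaptic and vascular basement membranes, measured 11.13, 12.17, 11.41 and 11.34 on days 0, 7, 17 and 32 of the feeder arm, against 10.67 on day 0, 10.82 and 10.89 on day 7, 11.04 and 11.12 on day 17 and 11.02 and 11.09 on day 32 of the feeder-free arm. Day 7 of the feeder arm was the highest array. The change from day 0 to day 7 was 1.05 in the feeder arm and 0.18 in the feeder-free arm, a difference of 0.86 ± 0.19 (adjusted p = 0.00374). Over days 17 and 32 Lamb2 stayed higher in the feeder arm by 0.31 ± 0.09. Lama3, Lamb3 and Lamc3, chains of epithelial and other less widespread laminins, passed in no comparison and had ranges of 0.41 to 0.88.

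Receptors for laminin and collagen held the largest change of all 49 genes. Itga2, which pairs with Itgb1 to bind collagens and laminins, had log2 values of 8.02, 9.30, 12.80 and 12.90 on days 0, 7, 17 and 32 of the feeder arm, against 8.35 on day 0, 13.22 and 13.43 on day 7, 13.84 and 13.97 on day 17 and 13.72 and 13.65 on day 32 of the feeder-free arm. Day 0 lay near background in both arms, day 7 was far higher in the feeder-free arm than in the feeder arm, and all arrays of days 17 and 32 were high. From day 0 to day 32 it rose by 4.97 ± 0.72 (SE, adjusted p = 0.00138). The rise to day 7 was 4.98 ± 0.13 in the feeder-free arm (adjusted p = 4.92e-12), against a change of 1.28 in the feeder arm, a difference of -3.70 ± 0.20. Over days 17 and 32 it was lower in the feeder arm, with a difference of -0.95 ± 0.09 (adjusted p = 3.48e-06), and that of Col4a1 was -1.44 ± 0.09.

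Itga6, the alpha subunit of laminin receptors with Itgb1 or Itgb4, measured 10.83, 11.36, 12.77 and 12.34 on days 0, 7, 17 and 32 of the feeder arm, against 10.57 on day 0, 12.10 and 12.17 on day 7, 12.68 and 12.80 on day 17 and 12.45 and 12.34 on day 32 of the feeder-free arm. All arrays of days 17 and 32 exceeded both day 0 arrays, and the arms overlapped there. It rose by 1.65 ± 0.21 to day 32 (adjusted p = 0.000723). The rise was 1.56 ± 0.13 to day 7 of the feeder-free arm and a further 0.61 ± 0.10 to day 17. Its partner Itgb4, the hemidesmosome subunit, had a range of 0.46 and passed in no comparison.

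Itga7, a laminin-binding subunit best known from muscle, had values of 11.26, 11.86, 9.83 and 10.31 on days 0, 7, 17 and 32 of the feeder arm, against 10.48 on day 0, 10.34 and 10.53 on day 7, 10.14 and 10.01 on day 17 and 10.13 and 10.34 on day 32 of the feeder-free arm. The feeder arrays of days 0 and 7 were the 2 highest, and the arrays of days 17 and 32 lay below both day 0 arrays. The change from day 0 to day 7 was 0.61 in the feeder arm and -0.04 in the feeder-free arm, a difference of 0.65 ± 0.21 (adjusted p = 0.0424), which did not pass without the first feeder-free day 7 array (0.56, adjusted p = 0.0987) or after further quantile normalization (adjusted p = 0.0564). From day 7 to day 17 the feeder value moved by -2.03, and Itga7 fell in the feeder-free arm by 0.36 ± 0.11 (adjusted p = 0.0345), a call lost without the second feeder-free array of day 7 or of day 17.

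Itga1, the neighbour of Itga2 on chromosome 2 and likewise a collagen receptor with a preference for type IV collagen, had values of 8.31, 8.43, 8.36 and 8.54 on days 0, 7, 17 and 32 of the feeder arm, against 8.05 on day 0, 9.20 and 9.26 on day 7, 8.36 and 8.31 on day 17 and 8.84 and 8.72 on day 32 of the feeder-free arm. The 2 feeder-free day 7 arrays were the highest, followed by the 2 feeder-free day 32 arrays. It rose by 1.18 ± 0.12 to day 7 in the feeder-free arm (adjusted p = 2.96e-06) and fell by 0.89 ± 0.10 to day 17 (adjusted p = 2.05e-05), while Itga2 rose by 0.58 ± 0.11 over the same days. Itga10 and Itga11, collagen receptors of cartilage and of fibroblasts, passed in no comparison. Of the 7 receptors in this group 2 rose to day 32 and 0 fell, against 17.4% and 13.7% of all genes.

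**Figure D4:**
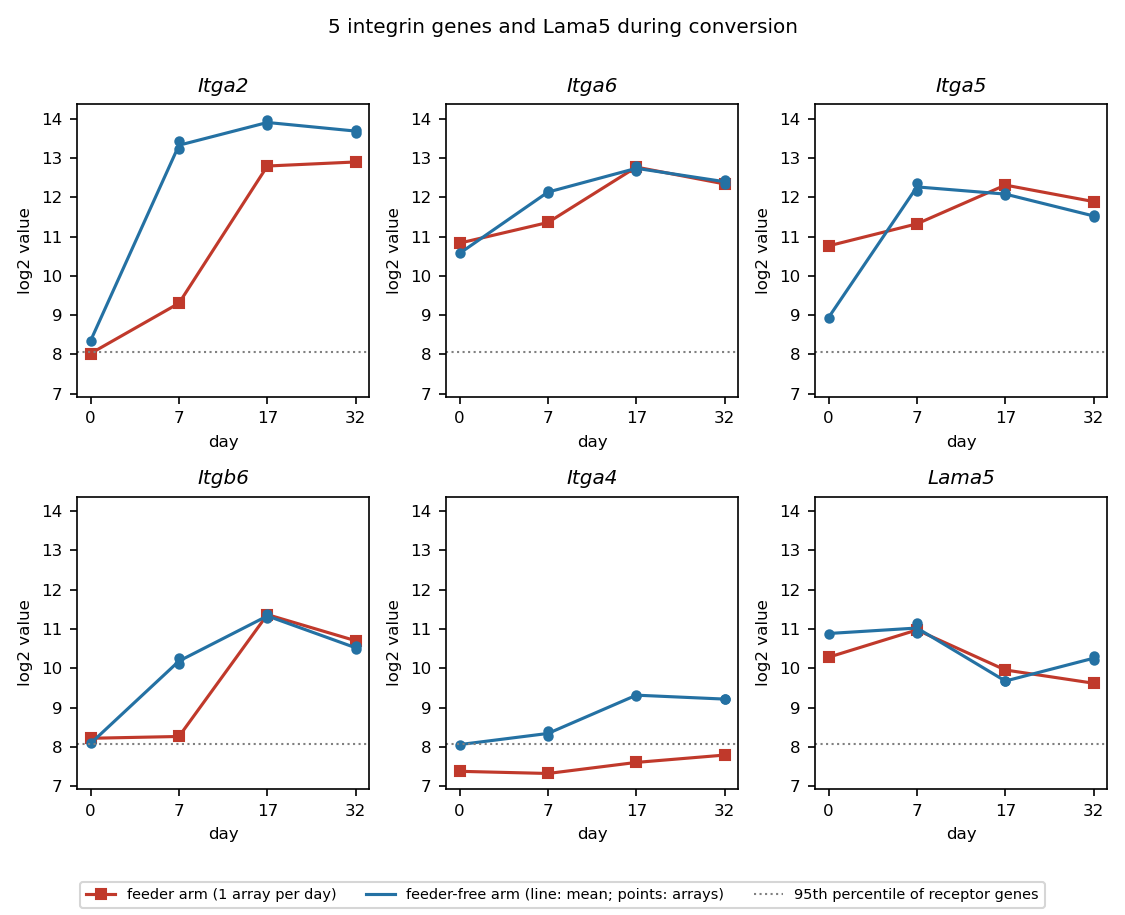
Log2 values of Itga2, Itga6, Itga5, Itgb6, Itga4 and Lama5 on days 0, 7, 17 and 32 (evenly spaced), with the feeder arm as red squares (1 array per day) and the feeder-free arm as blue points (arrays) and lines (means); the dotted line is the background bound of 8.06. Itga2 and Itgb6 reach 12.80 and 11.37 on day 17 in the feeder arm, Itga4 stays below the bound throughout the feeder arm, and Lama5 is lower on days 17 and 32 than on day 0 of the same arm.

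Receptors for fibronectin, vitronectin and latent TGF-beta, which recognise the tripeptide RGD, formed the next group. Itgb6 pairs with an alpha V chain, is best known from epithelia and activates latent TGF-beta. It measured 8.22, 8.26, 11.37 and 10.70 on days 0, 7, 17 and 32 of the feeder arm, against 8.08 on day 0, 10.11 and 10.26 on day 7, 11.28 and 11.39 on day 17 and 10.56 and 10.48 on day 32 of the feeder-free arm. The day 0 arrays and the feeder day 7 array stood near background, and all arrays of days 17 and 32 lay above every earlier one. Itgb6 rose by 2.36 ± 0.45 to day 32 (adjusted p = 0.00446), a call lost without the feeder-free day 0 array (1.98, adjusted p = 0.0606). By day 7 it had risen by 2.10 ± 0.13 in the feeder-free arm, against a change of 0.05 in the feeder arm. From day 17 to day 32 its change was -0.76 ± 0.40 (adjusted p = 0.782), with lower values on day 32 than on day 17 in both arms. That fall passed with 8 group means (-0.74, adjusted p = 0.000154).

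Itga5, which with Itgb1 forms the classical fibronectin receptor, had values of 10.76, 11.33, 12.31 and 11.89 on days 0, 7, 17 and 32 of the feeder arm, against 8.94 on day 0, 12.15 and 12.38 on day 7, 12.10 and 12.06 on day 17 and 11.50 and 11.55 on day 32 of the feeder-free arm. The feeder-free day 0 array was by far the lowest, the feeder day 0 array came next, and days 17 and 32 lay above both. The rise to day 32 was 1.84 ± 0.47 over both arms (adjusted p = 0.0165). Without the feeder-free day 0 array it was 0.81 (adjusted p = 0.202), and without the feeder day 32 array 1.79 (adjusted p = 0.0601). On day 0 Itga5 was higher in the feeder arm by 1.83 ± 0.15 (adjusted p = 1.43e-06), in the same direction as the fibroblast markers above, whose part in it was not tested. The change to day 7 was 0.56 in the feeder arm and 3.33 in the feeder-free arm, and over days 17 and 32 Itga5 was higher in the feeder arm by 0.30 ± 0.09. Fn1, the fibronectin gene, fell by 2.98 ± 0.27 from day 0 to day 32 (adjusted p = 0.000241).

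Itgb3, the beta subunit of vitronectin and fibrinogen receptors, measured 8.66, 8.72, 8.43 and 8.40 on days 0, 7, 17 and 32 of the feeder arm, against 8.24 on day 0, 9.99 and 9.98 on day 7, 8.38 and 8.19 on day 17 and 8.11 and 8.28 on day 32 of the feeder-free arm. It was high on the 2 feeder-free day 7 arrays, apart from all 9 others. It rose by 1.75 ± 0.13 to day 7 of the feeder-free arm (adjusted p = 1.12e-07) and fell by 1.70 ± 0.11 to day 17 (adjusted p = 6.43e-08). Itgb5, another partner of alpha V, had values of 11.58, 11.84, 11.78 and 11.21 on days 0, 7, 17 and 32 of the feeder arm, against 10.96 on day 0, 11.90 and 12.10 on day 7, 11.39 and 11.52 on day 17 and 11.22 and 11.10 on day 32 of the feeder-free arm. The lowest array was feeder-free day 0 and the highest a feeder-free day 7 array, with the feeder arrays of days 0, 7 and 17 between them. Itgb5 rose by 1.04 ± 0.13 to day 7 in the feeder-free arm and fell by 0.54 ± 0.11 to day 17.

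Itgb1, the common beta subunit of the collagen, laminin and fibronectin receptors, ranged over 0.67 in all. It rose by 0.58 ± 0.13 to day 7 in the feeder-free arm (adjusted p = 0.00199) and passed in no other comparison. Of the 6 genes in this group 5 rose to day 7 in the feeder-free arm, where 16.2% of all genes rose. The median change was 1.39 against -0.05 over all genes. To day 32 2 rose (Itga5 and Itgb6), against 17.4% of all genes.

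Subunits best known from blood cells made up the last group. Itgb2, the beta subunit of the leukocyte integrins, had values of 8.40, 8.47, 8.21 and 8.30 on days 0, 7, 17 and 32 of the feeder arm, against 8.19 on day 0, 10.11 and 10.43 on day 7, 8.10 and 8.14 on day 17 and 8.37 and 8.45 on day 32 of the feeder-free arm. The 2 feeder-free day 7 arrays were high and the other 9 lay between 8.10 and 8.47. It rose by 2.08 ± 0.14 to day 7 in the feeder-free arm (adjusted p = 3.85e-08) and fell by 2.15 ± 0.12 to day 17 (adjusted p = 1.15e-08). The change in the feeder arm to day 7 was 0.07. Its leukocyte partners Itgad and Itgam were below background on all arrays, and Itgal had a range of 0.40.

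Some markers of other cell types were likewise highest on the feeder-free day 7 arrays, where Itgb2, Itgb3 and Itga1 peaked. The mean over 6 trophoblast markers was 12.03 and 12.17 on the feeder-free day 7 arrays and 10.66 on the feeder day 7 array, and it lay between 9.15 and 9.94 on the other 8. Of the 6, Elf5, Gata3, Hand1 and Plac1 were highest on the feeder-free day 7 pair. Tfap2c was not, and Cdx2 was lower there, at 9.70 and 9.72, than on day 0 of the same arm, at 11.14. Over 4 endothelial markers it was 10.29 and 10.46 on the feeder-free day 7 arrays and 8.90 to 9.27 elsewhere. Cdh5 carried that mean, at 13.62 and 13.65 against 8.97 on day 0, and Kdr was also highest there, at 8.07 and 8.30. Pecam1 was at 10.85 and 10.92 on day 7 against 12.29 on day 0, and Tek at 8.63 and 8.99 on day 7, below its 9.92 and 10.0 on day 17. Over 5 leukocyte markers it was 8.49 and 8.68 on the feeder-free day 7 arrays and 7.89 to 8.53 elsewhere. Of the 5, Csf1r alone was highest on that pair, at 10.16 and 10.27, against 8.30 on day 0 and 8.85 and 8.69 on day 17 of the same arm. Ptprc, the pan-leukocyte marker CD45, lay below background on all arrays, at 7.23 and 7.18 on these 2. The part of trophoblast, endothelial and myeloid genes in the peak was not tested.

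**Figure D5:**
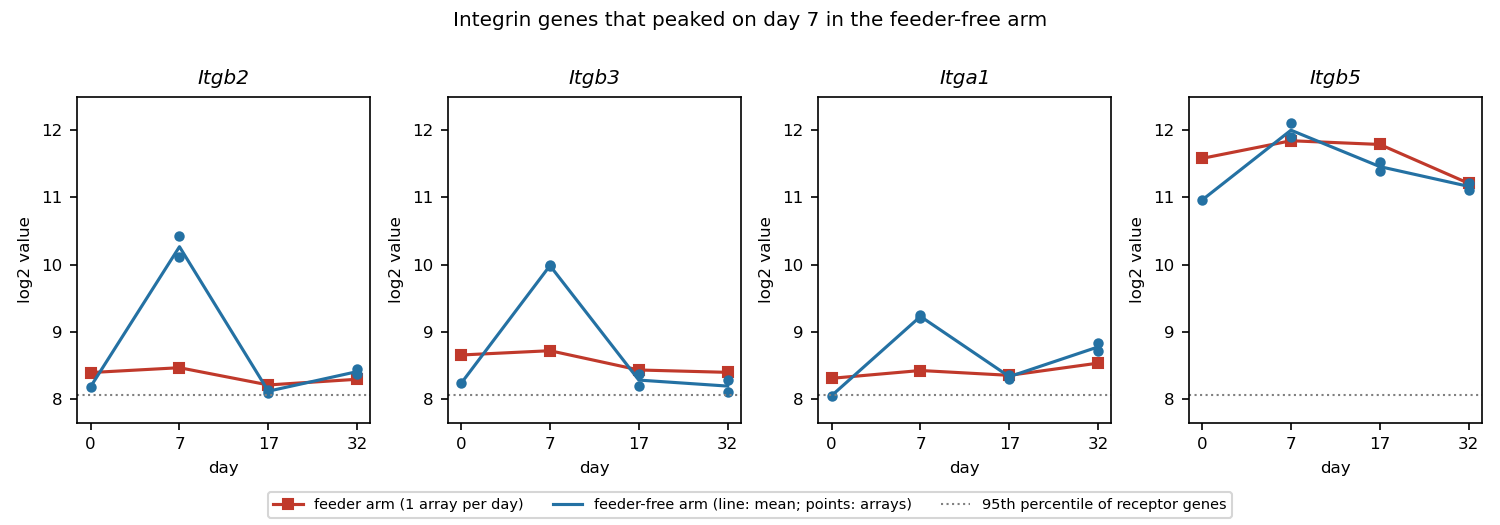
Log2 values of Itgb2, Itgb3, Itga1 and Itgb5 on days 0, 7, 17 and 32 (evenly spaced), with the feeder arm as red squares (1 array per day) and the feeder-free arm as blue points (arrays) and lines (means); the dotted line is the background bound of 8.06. In the feeder-free arm all 4 genes are highest on day 7 and lower on day 17, while the feeder values of Itgb2, Itgb3 and Itga1 change by at most 0.12 from day 0 to day 7.

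Itga4 and Itgb7 can pair as a receptor for cell adhesion molecules of vessels and for fibronectin, and Itga4 also pairs with Itgb1. Itga4 measured 7.38, 7.32, 7.60 and 7.79 on days 0, 7, 17 and 32 of the feeder arm, against 8.06 on day 0, 8.40 and 8.28 on day 7, 9.30 and 9.33 on day 17 and 9.22 and 9.21 on day 32 of the feeder-free arm. The 4 feeder arrays lay below the background bound, and the feeder-free arrays of days 17 and 32 lay above all others. Over those days it was lower in the feeder arm, with a difference of -1.57 ± 0.09 (adjusted p = 3.17e-08), the widest such difference among the 49. It was lower there on day 0 as well (-0.68 ± 0.14). It rose by 0.97 ± 0.10 from day 7 to day 17 of the feeder-free arm (adjusted p = 8.35e-06), and over both arms by 0.82 ± 0.20 to day 32. That last call was lost without the feeder-free day 0 array, and the feeder values stayed at background, so a change there could not be measured.

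Itgb7 had values of 8.27, 8.26, 8.46 and 8.65 on days 0, 7, 17 and 32 of the feeder arm, against 8.90 on day 0, 8.79 and 8.67 on day 7, 9.24 and 9.43 on day 17 and 8.88 and 9.11 on day 32 of the feeder-free arm. The feeder arrays of days 0, 7 and 17 were the 3 lowest. Itgb7 was lower in the feeder arm over days 17 and 32, with a difference of -0.61 ± 0.10 (adjusted p = 0.00024), and on day 0, with -0.63 ± 0.16, and it rose by 0.61 ± 0.11 from day 7 to day 17 in the feeder-free arm. Itgbl1, an integrin beta-like secreted protein and no receptor subunit, measured 8.41, 7.57, 7.20 and 7.57 on days 0, 7, 17 and 32 of the feeder arm, against 7.53 on day 0, 7.53 and 7.58 on day 7, 7.49 and 7.48 on day 17 and 7.61 and 7.67 on day 32 of the feeder-free arm. It was above background on 1 array, day 0 of the feeder arm, and higher there than on the feeder-free day 0 array by 0.88 ± 0.14 (adjusted p = 0.000289). In that it resembled Col1a2 and Col3a1, and the fibroblast markers given above apply to it too.

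Among genes that modify and crosslink collagen, rises outnumbered falls. The list, like those below, was chosen with earlier results of these data known. Of 24 measured genes 14 rose from day 0 to day 32 and 0 fell (17.4% and 13.7% of all genes), with a median change of 0.98 against 0.05 over all genes. P3h2, a prolyl 3-hydroxylase, rose by 5.58 ± 0.78, Serpinh1, the collagen chaperone HSP47, by 4.15 ± 0.70, Pxdn, peroxidasin, which crosslinks type IV collagen, by 3.72 ± 0.77, and Plod1, a lysyl hydroxylase, by 3.35 ± 0.54. By day 7 of the feeder-free arm 16 had risen and 1 had fallen (16.2% and 20.7% of all genes). For 14 of the 24 the change to day 7 was smaller, or further down, in the feeder arm and for 0 it was larger (11.2% and 10.9% of all genes). On day 0 12 of the 24 were already higher in the feeder arm and 1 was lower (14.7% and 16.9% of all genes). The feeder day 0 array, where fibroblast markers were high, enters the change to day 7 of these genes too. The part of those markers in it was not tested.

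The adaptors that tie integrins to actin gave 8 rises and 4 falls among 21 genes to day 32, where 17.4% of all genes rose and 13.7% fell. Parvb, beta-parvin, rose by 2.79 ± 0.29 and Flna, the actin crosslinker filamin A, by 1.74 ± 0.55. The arms differed in Flna: it read 12.36 on day 0 and 12.97 on day 32 of the feeder arm. In the feeder-free arm it read 9.04 on day 0, with a mean of 11.88 on day 32. Lims2, a partner of the parvins, fell by 2.71 ± 0.44 and Tns1, tensin-1, by 1.60 ± 0.31. By day 7 of the feeder-free arm 12 of the 21 had risen and 3 had fallen, against 16.2% and 20.7% of all genes. Among 13 other matrix receptors 2 rose and 4 fell to day 32, against the same 17.4% and 13.7%: the syndecan Sdc4 rose by 2.99 ± 0.42 and the integrin-associated tetraspanin Cd151 by 2.20 ± 0.33, and the syndecan Sdc3 fell by 1.25 ± 0.19 and Cd47 by 1.15 ± 0.17.

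Among 15 other matrix proteins 2 rose and 4 fell to day 32, against 17.4% and 13.7% of all genes. Sparc, a collagen-binding matrix protein of the parietal endoderm, rose by 1.64 ± 0.45 and Fbln1, fibulin-1, by 1.20 ± 0.17. Sparc read 14.73 on day 0 and 15.50 on day 32 of the feeder arm. In the feeder-free arm it read 13.23 on day 0, with a mean of 15.72 on day 32. Spp1, osteopontin, an integrin ligand, fell by 1.73 ± 0.56, beside the fall of Fn1 given above. Of 20 proteases and inhibitors 1 rose and 2 fell, against the same shares of all genes: the inhibitor Timp2 rose by 3.16 ± 0.79 and the membrane protease Mmp14 fell by 1.31 ± 0.20 and Adam9 by 0.98 ± 0.25. By day 7 of the feeder-free arm 9 of these 20 had risen and 1 had fallen, against 16.2% and 20.7% of all genes, among the rises Mmp1, a collagenase, by 7.56 ± 0.13. To day 32 the change of Mmp1 over both arms was -0.22 ± 0.95 (adjusted p = 0.895).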

How the data were processed

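The values are log2 expression values that the authors deposited as 1 table for all 11 arrays, computed by RMA (per the submitters' processing notes, without version or options). The step that gave every array the same median of 8.97 is not given in the sources used here. Of 29214 rows, 15310 carried 1 gene symbol, 323 several and 13581 none in the platform annotation; 15279 matched a RefSeq identifier, and 0 symbols changed. The brightest row stood for each of 527 genes with more rows, which left 14506 genes, with no filter. Samples were grouped by the labels' culture and day. limma 3.58.1 (R 4.3.3; lmFit, eBayes) was run with day and culture as terms (6 residual degrees of freedom) for day 32 against days 0 and 17, and with 8 group means (3 residual degrees of freedom, from the feeder-free pairs) for the other 5 comparisons. P-values were adjusted over all 14506 genes by Benjamini-Hochberg, with a threshold of 0.05, and the calculation was tested on simulated data. Depth has no meaning for arrays, and their number limits the precision. The members, gene lists and tests were chosen with earlier results of these data known. Named with all values are members changed by at least 1 to day 32 and the 5 largest rises and falls of each other comparison (the 2 largest changes where none passed), without those below background on all arrays; up to 4 changed genes are named per list. Alternatives covered filters, row choice, normalization, the eBayes options, the fit, a replicate block and leaving out each array. Figures were drawn with matplotlib 3.10.9.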

Additional observations from a re-analysis of the deposited data

Results flagged for a closer look

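For 15 of the 49 genes the change from day 0 to day 7 differed between the arms in the test of the difference itself (limma with 8 group means, adjusted p under 0.05). The feeder values come from 1 array each, and so does the feeder-free value of day 0. The differences are feeder minus feeder-free, on the log2 scale. Among receptors of laminin and collagen, Itga2 differed by -3.70 (change 1.28 in the feeder arm, 4.98 in the feeder-free arm), Itga1 by -1.06 (0.12 and 1.18), Itga6 by -1.04 (0.53 and 1.56) and Itga7 by 0.65 (0.61 and -0.04). Of the RGD receptors, Itga5 differed by -2.77 (0.56 and 3.33), Itgb6 by -2.05 (0.05 and 2.10), Itgb3 by -1.68 (0.06 and 1.75) and Itgb5 by -0.78 (0.26 and 1.04). Itgb8 differed by 0.93 (1.01 and 0.07) but lay below the background bound on every array. Itgb2, the leukocyte subunit, differed by -2.01 (0.07 and 2.08).

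The feeder day 0 array, where fibroblast markers were high, enters the values of the integrins above and of the matrix genes below. On day 0 Itga5, Itga7 and Itgb5 were higher in the feeder arm, by 1.83, 0.78 and 0.62. On day 7 their differences, feeder minus feeder-free, were -0.94, 1.43 and -0.16. The other integrins above did not pass on day 0. Col1a2 differed by -2.01 (change -1.93 in the feeder arm, 0.08 in the feeder-free arm), Col3a1 by -1.17 (-1.06 and 0.11), Itgbl1 by -0.87 (-0.84 and 0.03) and Col12a1 by -0.73 (-1.39 and -0.66). Lamb2 differed by 0.86 (1.05 and 0.18).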

How the results depend on the processing

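Over 7 counts of changed members 120 alternatives were run, and 110 stayed within 1.5 times. The shares of all genes under these alternatives are not given here. Requiring a change of at least 1 left 5 of 10 members for day 32 against day 0, 8 of 13 for day 7 against day 0 and 4 of 11 for day 17 against day 7 in the feeder-free arm, 9 of 15 for the change to day 7 between the arms, 4 of 12 for the arms on day 0 and 1 of 10 for the arms over days 17 and 32. With 8 group means 18 members passed from day 0 to day 32 (8 rises, 10 falls). From day 17 to day 32, where 0 passed, 8 group means gave 5 falls, a fit to only the feeder-free arm gave a partly different 5 (rises of Itga1 and Lama5, falls of Itga5, Itgb1 and Itgb6), and leaving out single arrays gave 0 to 1. Of 793 values of named members under alternatives 0 reversed. With day and culture terms the feeder-free rises of Itgb6, Itgb2 and Itgb3 and the fall of Col12a1 to day 7 did not pass (adjusted p = 0.0806, 0.0669, 0.063 and 0.0535), nor did the changes of Itga2, Itga1 and Itgb5 from day 7 to day 17 (0.142, 0.0571 and 0.123); this fit gives both arms 1 common change. The replicate numbers do not pair the arrays: deviations of same-numbered arrays correlated at 0.03, -0.20 and -0.10. With a replicate block 9, 0, 13, 11, 15, 11 and 10 members passed in the 7 comparisons, in place of 10, 0, 13, 11, 15, 12 and 10. Not run were fits that leave a comparison without an array of 1 of its groups, and day and culture terms for differences between the arms on day 0 or to day 7. Signals per probe were not examined, so values near background are limited by it.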
